A study of Mus musculus with 12 samples.

Results

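Bone morphogenetic protein (BMP) signalling was described here by 10 genes in mouse back skin. They were the ligand genes Bmp2, Bmp4 and Bmp7, the antagonist genes Nog (noggin) and Grem1 (gremlin 1), the receptor gene Bmpr1a, the pseudoreceptor gene Bambi, and the target genes Id1, Id2 and Id3. A probe belonged to a gene when the array files gave it that gene's name, and all 10 genes were found. They took 16 of 41174 probes and 52 spots, while the arrays held 27373 gene names in all. There were 5 genes with 1 probe, 4 with 2 probes and 1, Id2, with 3.

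BMP ligands bind a pair of receptor kinases at the cell surface, and these phosphorylate Smad proteins that enter the nucleus and switch on targets such as the Id genes. Noggin and gremlin 1 bind the ligands outside the cell and keep them from their receptors, and BAMBI resembles a receptor but has no kinase. In skin, BMP signals hold resting hair follicle stem cells in quiescence, noggin made in the follicle's mesenchyme favours entry into the growth phase (anagen), and BMP signalling through BMPR1A is needed later for matrix cells to form the hair shaft.

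The RNA came from whole back skin of male C57BL/6J mice, 8 weeks old, whose shaved backs received 200 µL per day of 3% MXD (minoxidil, the positive control), 10% N-CE (a cold vacuum cell extract of the cactus Notocactus ottonis) or VC (propylene glycol, ethanol and water at 5:3:2), from the day after shaving. All groups, VC included, were shaved. Samples were taken at 1W, 2W and 3W (weeks), and RNA of 6 mice was pooled per group before labelling, so each treatment and week was 1 pool. For every treated pool there were 2 two-colour arrays against VC of the same week, with the dyes exchanged, which gave 12 arrays and 6 comparisons, named here MXD 1W to N-CE 3W. The 2 arrays measured the same RNA, so an SD below is over the dye swap and is technical, and no test between mice was possible within a week. The 4 arrays of a week shared a slide and a VC pool, and week and slide cannot be told apart.

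On the 12 arrays, 57.0% to 69.6% of the transcript spots were well above background in a channel, and 0 spots were saturated. The 2 arrays of a swap were compared over the probes above background in both groups. Their log2 ratios correlated across probes with r = 0.57 for MXD 1W, 0.71 for MXD 2W, 0.26 for MXD 3W, 0.60 for N-CE 1W and 0.35 for N-CE 3W. At N-CE 2W the correlation was -0.17, so across probes the N-CE 2W values did not repeat between the arrays and are given only as measured. Probes are not independent replicates, and no p is given for these correlations. The tissue's own markers were present: among 10 genes of epidermal and follicular keratinocytes, 0 or 1 lay at background in both groups of any comparison, and among 10 dermal fibroblast genes 0 did.

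The sequences of 4 member probes are shown because a value belongs to the stretch of transcript its probe binds. These 4 were read as coding sequence from their letters, without an annotation of mm9. They are the 60-base oligonucleotides of the arrays, written 5′ to 3′ in the sense of the transcript, and no base is singled out by capitals. Positions are on mm9 as the array files give them. The Bmp4 probe lies at chr14:47003802-47003861 on the minus strand and the Nog probe at chr11:89162849-89162908 on the minus strand. The Id2 probe spans chr12:25780183-25780530 on the minus strand and the Id3 probe chr4:135700075-135700249 on the plus strand, and both cover more of the genome than their 60 bases, as a probe across a splice junction does.
Bmp4: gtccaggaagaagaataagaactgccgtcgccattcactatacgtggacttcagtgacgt
Nog: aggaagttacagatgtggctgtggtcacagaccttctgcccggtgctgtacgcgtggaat
Id2: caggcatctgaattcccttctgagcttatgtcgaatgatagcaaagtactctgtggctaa
Id3: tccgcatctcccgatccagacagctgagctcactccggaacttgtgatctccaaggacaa

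The Id genes are the classical transcriptional readout of the pathway, so the 250 bases before the RefSeq start of Id2 and Id3 are shown as well (GRCm38.p6, in the direction of transcription). The Id2 window is chr12:25096093-25096342 on the minus strand and the Id3 window chr4:136143572-136143821 on the plus strand. Capitals mark matches on either strand to GGCGCC, a GC-rich sequence bound by BMP-activated Smads, and to GTCT, the core of the Smad box.
Id2: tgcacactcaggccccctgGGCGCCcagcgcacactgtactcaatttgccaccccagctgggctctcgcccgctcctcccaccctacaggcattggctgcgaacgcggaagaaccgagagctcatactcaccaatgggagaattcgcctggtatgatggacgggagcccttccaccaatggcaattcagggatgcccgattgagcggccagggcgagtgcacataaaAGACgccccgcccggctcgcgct
Id3: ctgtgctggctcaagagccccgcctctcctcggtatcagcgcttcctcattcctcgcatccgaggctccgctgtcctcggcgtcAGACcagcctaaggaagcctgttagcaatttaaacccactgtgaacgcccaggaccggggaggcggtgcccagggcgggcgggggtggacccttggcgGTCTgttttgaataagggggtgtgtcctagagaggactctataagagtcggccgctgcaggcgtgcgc

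Both windows had a GC content of 62.8%. The Id2 window held 1 match to GGCGCC and 1 to GTCT, and the Id3 window held 0 and 2. Of 32851 promoter windows of the same length, 9.59% held GGCGCC and 82.9% held GTCT. The windows of Grem1 and Bmpr1a held GGCGCC once each and that of Bmp4 held none. The palindrome GTCTAGAC, which contains the Smad box on both strands, was in 0 of these 5 windows and in 0.167% of all. These matches describe letters in a window and were not linked to the measured changes.

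Each gene was read from its probe of highest mean signal. It was called in a comparison when the 2 arrays moved the same way, each with an error-model P under 0.01, and the fold averaged over them exceeded 1.5 or was less than 0.75. That P comes from the scanner software's model of spot noise and says nothing of the spread between mice. For a probe printed more than once it is the median of the P values of its single spots. All 10 genes were well above background in both groups on both arrays of each comparison. In bulk RNA of whole skin, fewer cells of a type and less RNA per cell cannot be told apart. MXD 2W called 3 of 10 up and 0 down, where 6.91% of all genes above background were called up and 11.1% down. N-CE 1W called 1 of 10 down and 0 up, against 2.78% down and 0.603% up of all such genes. In the remaining comparisons 0 of 10 were called, against 1.31% up and 1.38% down at MXD 1W, 0.290% and 0.284% at MXD 3W, 0.133% and 0.0843% at N-CE 2W, and 0.221% and 0.221% at N-CE 3W. The median log2 fold of the 10 genes was 0.35 at MXD 2W, with 9 of 10 above 0 and 8 of 10 above 0 on both arrays, beside a median of 0.03 over all genes. At N-CE 1W the median was -0.09, with 8 of 10 below 0 and 5 of 10 below 0 on both arrays, beside a median of 0.03 over all genes. Of all genes above background in a channel, 52.1% lay above 0 at MXD 2W and 53% at N-CE 1W. In the other comparisons the median of the 10 genes lay between -0.05 (MXD 1W) and 0.09 (N-CE 2W).

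**Figure D1:**
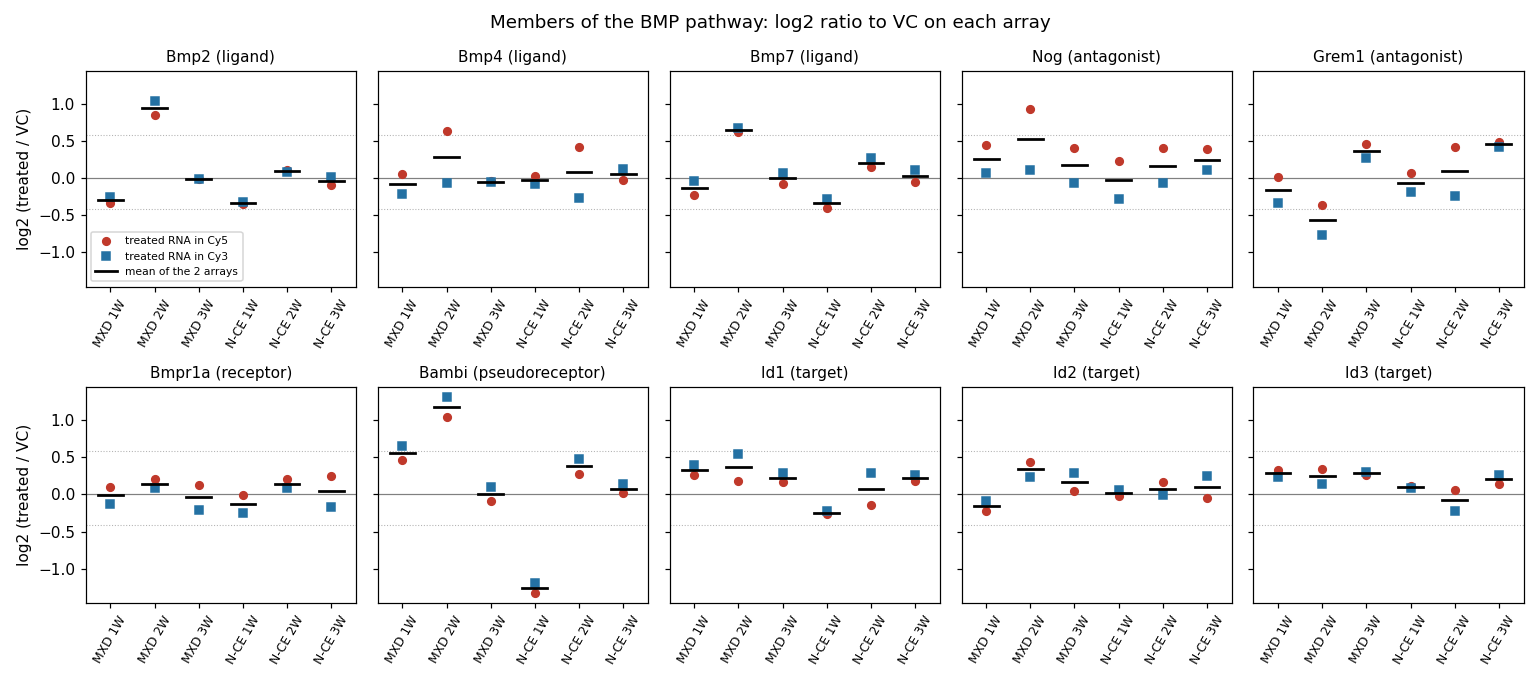
Log2 ratio of treated over VC for each of the 10 genes (highest-signal probe) in the 6 comparisons; red circles, array with treated RNA in Cy5; blue squares, array with treated RNA in Cy3; black bar, mean; dotted lines, the fold thresholds of 1.5 and 0.75. Bambi ran from -1.26 at N-CE 1W to 1.18 at MXD 2W with close array pairs, while Nog and Bmp4 had arrays far apart at MXD 2W.

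Bambi, the pseudoreceptor, had the largest log2 folds of the 10 genes in both directions. Its log2 ratios on the arrays with treated RNA in Cy5 and in Cy3, in that order here and below, were 0.46 and 0.65 at MXD 1W, 1.04 and 1.31 at MXD 2W, and -0.09 and 0.10 at MXD 3W. For N-CE the 1W arrays read -1.33 and -1.19, the 2W arrays 0.28 and 0.47, and the 3W arrays 0.02 and 0.14. Both arrays were therefore above VC for MXD at 1W and 2W and far below VC for N-CE at 1W, and at 3W both treatments lay near VC.

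The called changes of Bambi were a 2.26-fold rise at MXD 2W (log2 1.18 ± 0.19, SD over the swap, P of 4.01e-06 and 3.31e-08) and a fall to 0.417 of VC at N-CE 1W (log2 -1.26 ± 0.10, P of 2.04e-08 and 2.68e-07). At MXD 1W the fold was 1.47, just short of the threshold, and P was 0.0272 on one array. The probe was printed 10 times per array, and at MXD 2W the spots ran from 1.02 to 1.09 on one array and from 1.28 to 1.38 on the other, so the arrays differed by more than the spots within them. A second Bambi probe had a mean signal of 7.23 against 5752 for the first, lay at background in all comparisons and gave no information.

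Bmp2, a ligand made in hair follicles and by fat cells of the dermis, was the second called gene. Its log2 ratios were 0.85 and 1.04 at MXD 2W, which was a 1.92-fold rise (0.94 ± 0.13, P of 0.000178 and 6.20e-06). At 1W both treatments lay below VC on both arrays, with -0.34 and -0.25 for MXD and -0.35 and -0.32 for N-CE, and neither passed the call. At 3W the MXD arrays gave -0.01 and -0.01, and the N-CE arrays -0.09 and 0.02. With another background correction (normexp and loess) the MXD 2W value was 0.66, still above the fold threshold. The probe is the dimmest but 1 of the members, with a mean signal of 282.

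Bmp7, a ligand of the follicle epithelium and mesenchyme, rose 1.57-fold at MXD 2W (log2 ratios 0.62 and 0.67, mean 0.65 ± 0.03, P of 0.00349 and 0.00187). Its second probe lies 19 bases away and gave 0.51 and 0.67, which did not meet the P criterion on both arrays. At N-CE 1W both Bmp7 probes were below VC on both arrays, at -0.40 and -0.28 for the first and -0.33 and -0.43 for the second, and were not called.

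Bmp4, a ligand of the dermal papilla, was not called in any comparison. At 2W the arrays disagreed in both treatments, with 0.63 and -0.06 for MXD and 0.42 and -0.26 for N-CE. Its spots did not overlap between the arrays of MXD 2W, with 9 spots from 0.48 to 0.67 on one and 10 from -0.13 to 0.02 on the other. In the other 4 comparisons its mean lay between -0.08 (MXD 1W) and 0.05 (N-CE 3W).

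Nog was above VC on all 6 arrays with treated RNA in Cy5, from 0.24 at N-CE 1W to 0.94 at MXD 2W. On the arrays with treated RNA in Cy3 its log2 ratio lay between -0.28 and 0.11. The sign of the Nog ratio thus followed the dye in 3 of 6 comparisons, its SD over the swap was 0.20 to 0.59, and 0 comparisons were called. At MXD 2W the mean was 0.52, a fold of 1.44, with a P of 3.13e-05 on one array and 0.605 on the other. Nog was the dimmest member, with a mean signal of 189.

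Grem1 was the only one of the 10 genes below VC at MXD 2W, with log2 ratios of -0.36 and -0.76. The mean was -0.56 ± 0.28, or 0.678 of VC, and only the second array had P under 0.01 (0.0827 and 0.000434), so it was not called. At 3W it was above VC on both arrays of both treatments, with 0.46 and 0.27 for MXD and 0.49 and 0.42 for N-CE. The ratio at N-CE 3W was 1.37-fold and that at MXD 3W 1.29-fold, both below the threshold.

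Bmpr1a, the type I receptor, stayed near VC. The mean of its brighter probe was between -0.13 (N-CE 1W) and 0.14 (MXD 2W). Its second probe, with a mean signal of 92.9 against 5690, read 1.27 on one array of MXD 2W and 0.07 on the other, and VC was above background for it on only 1 of those 2 arrays.

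Among the target genes, Id1 and Id3 were above VC on 6 of 6 MXD arrays. Id1 arrays read 0.26 and 0.40 in MXD 1W, 0.18 and 0.55 in MXD 2W, 0.17 and 0.29 in MXD 3W. For Id3 the MXD 1W arrays read 0.33 and 0.24, those of MXD 2W 0.34 and 0.15, and those of MXD 3W 0.26 and 0.31. They correspond to folds of 1.17 to 1.29 for Id1 and of 1.18 to 1.22 for Id3, below the threshold. Among 14621 genes above background throughout, 8.45% were above 0 on all 6 MXD arrays and 0.800% on all 6 N-CE arrays, and neither Id1 nor Id3 was so for N-CE.

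For N-CE, Id1 was below VC at 1W on both arrays (-0.26 and -0.23) and above it at 3W (0.19 and 0.26), and Id3 was above VC on 5 of 6 arrays. The 2 Id1 probes share 50 of their 60 bases, so their like values are not independent. The 3 Id2 probes did not give the same picture. At MXD 2W the coding probe read 0.34 ± 0.14, the probe 1219 bases further on -0.20 ± 0.30 and the third 0.28 ± 0.19, and at N-CE 1W they read 0.01, 0.09 and -0.39. Id2 was therefore given no direction.

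The channel signals were also put on one scale across arrays, to follow each pool over time. The VC pool was read on 4 channels per week and the treated pools on 2, and a difference between weeks can also come from the slide. Bambi in VC rose from 10.57 (log2 signal) at 1W to 11.42 at 2W and 12.34 at 3W, an increase of 1.77 that exceeded 99.2% of genes. Over the same weeks the MXD pool had 11.16, 12.45 and 12.21, and the N-CE pool 9.34, 11.90 and 12.57. At 1W and 2W the channels of the 3 pools did not overlap for Bambi, with N-CE lowest at 1W and VC lowest at 2W.

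Grem1 ran the other way in VC, from 10.14 at 1W to 9.38 at 2W and 9.04 at 3W. Its decrease from 1W to 3W was 1.09, and 0.780% of genes fell further. The MXD pool had its lowest value at 2W (8.87) and was at 9.47 at 3W. Bmp4 in VC was 9.98, 9.53 and 10.35, and its rise from 2W to 3W by 0.82 exceeded 99.4% of genes. Bmp7 in VC rose from 10.79 to 11.41, and Bmpr1a was at 11.54, 11.55 and 11.68. For Id3 the MXD channels lay above the VC channels in each week, with a lowest MXD channel of 11.33 against a highest VC channel of 11.08 for 1W, 11.34 against 11.23 for 2W and 11.73 against 11.50 for 3W. The median gene moved by -0.04 from 1W to 3W. The VC pool of a week was read against MXD and against N-CE. For the highest-signal probes of the 10 genes these values differed by 0.02 to 0.48, most for Id2 at 3W. Some other probes differed more. MXD arrays minus N-CE arrays gave -0.72 at 2W and -0.50 at 3W for the second Bmp7 probe. The second Bmpr1a probe, dim at a mean signal of 92.9, gave -0.94 and -0.98.

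**Figure D2:**
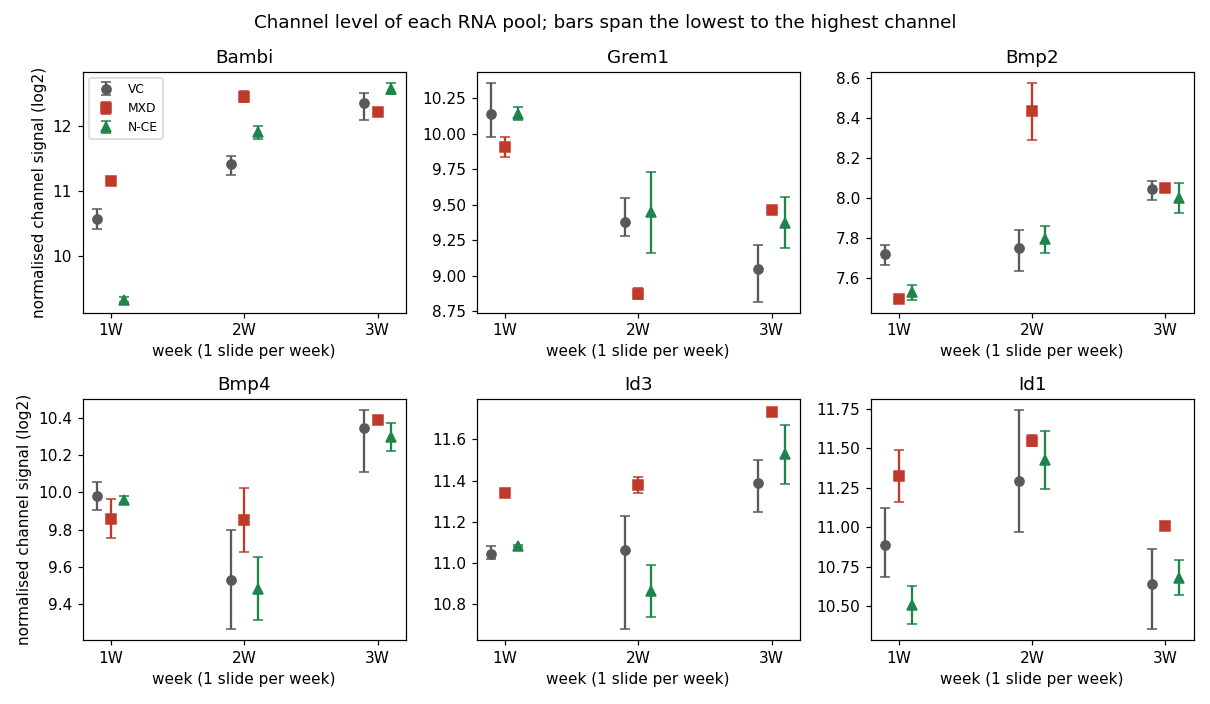
Normalised channel signal (log2) of Bambi, Grem1, Bmp2, Bmp4, Id3 and Id1 in the VC (grey circles), MXD (red squares) and N-CE (green triangles) pools by week; the symbol is the mean of 4 channels for VC and of 2 for the others, and the bar spans the lowest to the highest channel. Bambi rose from 10.57 to 12.34 in VC over the weeks while Grem1 fell from 10.14 to 9.04.

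MXD and N-CE were compared directly by subtracting their log2 folds within a week and a dye orientation, which removes the shared VC pool and what the dye adds to both. Bambi was higher with MXD by 1.79 and 1.84 at 1W (mean 1.81 ± 0.04) and by 0.77 and 0.84 at 2W (0.80 ± 0.05), and at 3W the difference was -0.07 ± 0.04. Bmp2 was higher with MXD by 0.85 ± 0.15 at 2W, and Bmp7 by 0.44 ± 0.05. Grem1 was lower with MXD at 2W, by 0.65 ± 0.19. The 2W differences here and below use the N-CE 2W values, which did not repeat between the arrays across all probes (r = -0.17). Of the genes named here, Bambi, Bmp2 and Bmp7 were above VC on both N-CE 2W arrays, and Grem1 read 0.42 and -0.24.

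The arrays that disagreed on Bmp4 at 2W came together here, at 0.21 and 0.20. Id1 was higher with MXD by 0.57 ± 0.07 at 1W and 0.29 ± 0.04 at 2W, and Id3 by 0.19 ± 0.04 and 0.32 ± 0.06. At 3W the differences of the 10 genes lay between -0.10 and 0.08. Each pool was still 1 sample, so these differences between pools were not tested against the spread between mice.

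**Figure D3:**
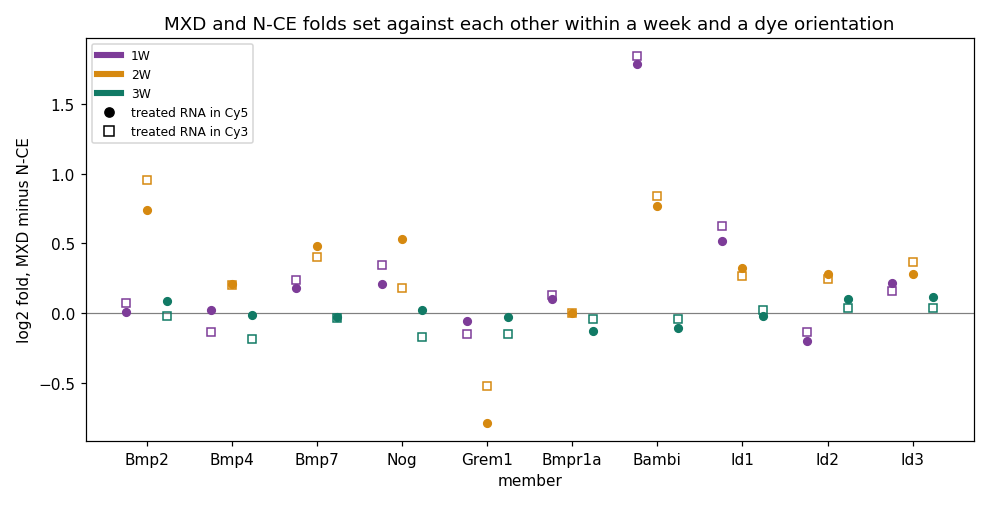
Difference in log2 fold, MXD minus N-CE, of each gene within a week; filled circles, arrays with treated RNA in Cy5; open squares, arrays with treated RNA in Cy3; colours, weeks. Bambi at 1W stands at 1.79 and 1.84, Grem1 at 2W is the lowest, and the 3W values of all 10 genes lie near 0.

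Across weeks, limma's moderated test took the 3 weekly log2 folds as replicates, which mixes time with replication. With Benjamini-Hochberg adjustment over 41068 probes, 0 probes were called for MXD, 0 of 40895 for N-CE and 0 of 40820 for MXD minus N-CE, and 3098, 1490 and 2021 probes had an unadjusted p under 0.05. Id3 had a mean of 0.27 with a standard error of 0.03 for MXD and Id1 one of 0.31 with 0.05, each with an adjusted p of 0.626 by limma. Bambi had a mean of 0.58 with a standard error of 0.29 and the same adjusted p. Its MXD minus N-CE mean was 0.85 with a standard error of 0.45 (adjusted p of 0.75 by limma). Without 2W, the N-CE fit again called 0 probes, with 1564 at an unadjusted p under 0.05.

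Of the 53 other genes of the pathway that were listed, 45 to 48 were above background in a channel per comparison. At MXD 2W, 9 of 48 were called up and 6 of 48 down, while 6.21% and 10.0% of all such genes were called. At N-CE 1W, 0 of 45 were up and 5 of 45 down (0.543% and 2.78% of all). At MXD 1W, 2 of 47 were up and 1 of 47 down (1.25% and 1.26% of all), and in the other comparisons 0 were called up or down, where the shares of all such genes were 0.293% up and 0.287% down (MXD 3W), 0.118% and 0.0752% (N-CE 2W), and 0.209% and 0.214% (N-CE 3W).

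Among 11 other ligands, Bmp8a rose at MXD 2W (1.61 ± 0.24) and fell at N-CE 1W (-1.95 ± 0.25, or -1.25 with normexp and loess). Gdf5 rose at MXD 1W (0.88 ± 0.21) at a low mean signal of 52.8, and with normexp and loess its value was 0.36, under the fold threshold. Gdf6 was called at MXD 1W, where VC was not above background on either array, and was at least 1.29-fold higher. The bound sets the treated pool against the higher of the dimmest probe above background and the probe's own VC signal, here and below. It was taken from the pool levels, made with normexp and an offset of 50. It is a lower limit and not the averaged fold that met the call.

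Among 14 other antagonists, 5 fell and 2 rose at MXD 2W, and the median was -0.10. Chrdl1 (-0.93 ± 0.28), Fstl1 (-0.83 ± 0.26) and Nbl1 (-0.98 ± 0.24), which encode secreted proteins that bind BMPs or related ligands, fell. Chrdl2 was not above background with MXD on either array and was at least 1.31-fold lower. Cer1 rose by 1.89 ± 0.18 at a low mean signal of 52.9 (0.80 with normexp and loess), and Bmper, which binds BMPs and can enhance or limit them, rose by 0.77 ± 0.15. In N-CE 1W 0 of 13 antagonists were called and the median was 0.16.

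Of 10 other receptors and co-receptors, Hfe2 (hemojuvelin) was called, with -0.83 ± 0.05 at MXD 1W and -1.34 ± 0.01 at MXD 2W. Hemojuvelin is a BMP co-receptor that skeletal muscle also makes, and of the skeletal muscle genes 7 of 11 fell and 1 rose at MXD 1W, and 12 of 12 fell at MXD 2W. The part of muscle in the Hfe2 value was not tested.

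Of 10 Smads and their regulators, the inhibitory Smads rose at MXD 2W, Smad6 by 0.94 ± 0.15 and Smad7 by 1.16 ± 0.17. Both are induced by the pathway they inhibit. At N-CE 1W their values were -0.54 ± 0.26 and -0.46 ± 0.50 and were not called. The receptor-activated Smad1 (0.46 ± 0.32) and Smad5 (0.20 ± 0.12) and the shared Smad4 (0.05 ± 0.04) were not called at MXD 2W, and are named for their role.

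Of 8 other target genes, 4 were called, the same homeobox and forkhead genes in both comparisons. Msx1 rose (1.37 and 0.82 on the arrays), as did Msx2 by 1.20 ± 0.04, Dlx3 by 1.36 ± 0.45 and Foxc1 by 0.93 ± 0.10 at MXD 2W. At N-CE 1W Msx1 was at -1.15 ± 0.32, Msx2 at -2.15 ± 0.19, Dlx3 at -1.33 ± 0.22 and Foxc1 at -0.74 ± 0.03, and all 4 were called down. These genes are also transcribed in hair matrix cells.

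**Figure D4:**
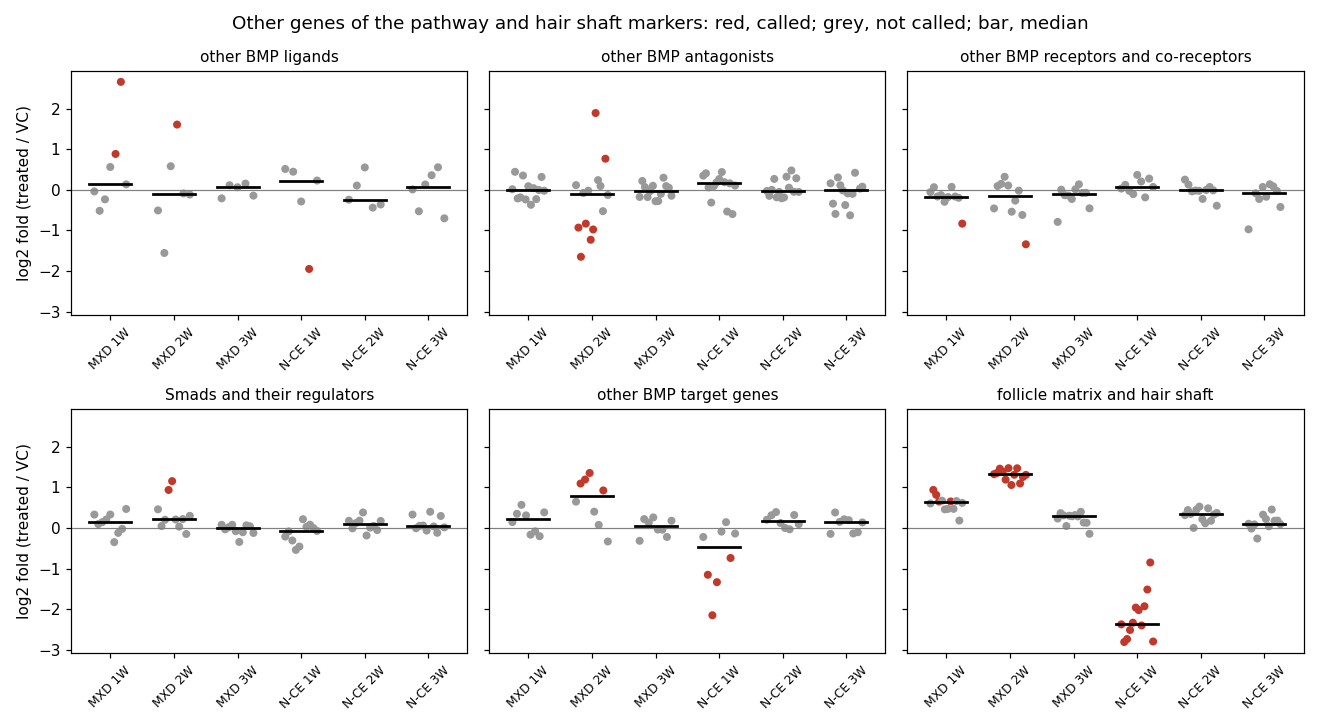
Log2 fold of the other listed pathway genes and of 12 hair shaft and matrix markers above background in a channel, by comparison; red, called; grey, not called; black bar, median of the list. At N-CE 1W 12 of 12 hair shaft and matrix markers and 4 of 8 other target genes were called down, and at MXD 2W the same numbers were called up.

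Marker genes of skin cell types moved in the same comparisons. Of 12 follicle matrix and hair shaft genes, 12 rose at MXD 2W (median 1.32, Krt34 1.39 ± 0.45, Krt33a 1.36 ± 0.01, Krt82 1.48 ± 0.65) and 12 fell at N-CE 1W (median -2.35, Krt33a -2.81 ± 0.19, Krt34 -2.51 ± 0.11). At MXD 1W 4 of 12 rose (median 0.64), where 1.25% of all genes above background in a channel were called up. None of the 12 lay at background in both groups, and their near-identical keratin family members can share signal.

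The summed level of 11 of these genes measured on all arrays was 15.35 to 15.56 (log2) in VC, 16.10 to 16.11 in MXD and 12.97 to 13.24 in N-CE at 1W. At 2W it was 16.64 to 17.37 in VC, 18.17 to 18.23 in MXD and 17.37 to 17.61 in N-CE. At 3W it was 17.56 to 17.75, 17.78 to 17.79 and 17.55 to 17.74. Bambi, Bmp2, Bmp7, Msx1, Msx2, Dlx3, Foxc1 and Bmp8a were up where this list was up at MXD 2W, and Bambi, Bmp8a, Msx1, Msx2, Dlx3 and Foxc1 were down where it was down at N-CE 1W. The part of follicle composition in those values was not tested.

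The other marker lists gave the following at MXD 2W, where 10.0% of all genes above background in a channel were called down and 6.21% up. In skeletal muscle 12 of 12 fell (median -1.46, Tnni2 -1.47 ± 0.17, Acta1 -1.46 ± 0.68, Myh1 -1.55 ± 0.21), and the summed level of 11 of them was 16.76 to 17.31 against 18.18 to 18.47 in VC. Of 10 fibroblast genes 6 fell (median -0.84, Dcn -0.98 ± 0.17, Vim -1.15 ± 0.21, while Col1a2 at -0.82 ± 0.41 was not called), with a sum of 16.29 to 16.40 against 16.99 to 17.19 over 8 genes. Grem1, Chrdl1, Fstl1 and Nbl1 were low in the same comparison, and the part of fibroblast composition in them was not tested.

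Of 10 adipocyte genes 6 fell (median -0.68, Cfd -0.97 ± 0.10, Plin1 -1.08 ± 0.23), and the brightest, Fabp4, was not called at -0.09 ± 0.03. Of 10 endothelial genes 3 fell (median -0.45, Cldn5 -0.93 ± 0.21), and the brightest, Egfl7, was not called at -0.44 ± 0.09. Of 11 immune cell genes 4 fell and 1 rose (median -0.64, Lyz2 -0.88 ± 0.21, Cd3d -1.19 ± 0.13), and Cd74 was not called at -0.66 ± 0.57. Of 10 keratinocyte genes 4 fell and 1 rose (median -0.46, Lor -1.17 ± 0.37, Flg2 -1.55 ± 0.25), and Krt5 was not called at 0.09 ± 0.46. Of 11 measured dermal papilla genes, a list that shares Bmp4 and Nog with the members, 2 rose, Alx4 (1.03 ± 0.15) and Ptch1 (0.80 ± 0.06), at a list median of 0.49, while the brightest genes Trps1 (0.53 ± 0.28) and Prdm1 (0.49 ± 0.06), and also Corin (1.13 ± 1.01), were not called. The keratinocyte gene that rose was Ivl (1.00 ± 0.01) and the immune cell gene S100a8 (0.96 ± 0.10). At N-CE 1W 2.78% of all genes above background in a channel were called down and 0.543% up. There these lists had 0 genes called apart from 2 dermal papilla genes that fell and 1 immune cell gene that rose (S100a9, 1.09 ± 0.03). The 2 were Alx4 (-1.42 ± 0.29) and Corin, which was not well above background with N-CE on either array and fell from a VC signal above background on both. Above 0 at N-CE 1W were 10 of 10 adipocyte genes (median 0.31) and 11 of 11 immune cell genes (0.28). Of 10 endothelial genes 9 were above 0 (0.29). The medians there were 0.17 for fibroblast, 0.08 for keratinocyte, -0.12 for skeletal muscle and -0.04 for dermal papilla genes.

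The genes whose log2 folds lay nearest to a called member over the 6 comparisons were found by the root mean square difference. The search covered 14630 genes above background in at least 1 channel of every comparison. For Bambi they were Krt32, a hair keratin (0.045), Serpina11 (0.054) and Slc39a8 (0.055). Krt32 had 0.47, 1.17 and 0.03 for MXD and -1.20, 0.41 and 0.08 for N-CE at 1W, 2W and 3W. For Bmp7 they were Znrf3 (0.053), Sdc1 (0.055) and Zfp710 (0.057), and for Bmp2 Brwd3 (0.099), Shb (0.11) and Fgf22 (0.11). The comparisons of a week share a VC pool, so these are likenesses of patterns over 6 values and carry no test.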

How the data were processed

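Whole-skin RNA was measured on Agilent 4x44K two-colour arrays, 12 in all. Scans were read by the authors in Agilent Feature Extraction, version 12.0.3.1 per the file headers (the submitters' processing notes name 11.0.1.1), which subtracted background and normalized the dyes by LOWESS. Values deposited are the log10 ratio of Cy5 over Cy3, its error-model p-value per spot, and raw and processed signal intensity per channel. The deposited series matrix holds log10 ratios of the processed signals, equal to those of the arrays at all 43379 transcript spots within 1e-05. Probe positions are on mm9.

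Control and outlier-marked spots were left out, ratios were turned to treated over VC in log2, and spots of a probe were averaged. The P of a probe was the median over its spots. A gene was represented by its probe of highest mean processed signal. Fold and SD are over the dye swap. The thresholds for P and fold are those the study states. Asking both arrays to pass the P threshold in the same direction was a choice made here. Pool levels used normexp with an offset of 50, loess and Aquantile normalization in limma 3.58.1 (R 4.3.3). The normexp and loess folds and the moderated tests were also run in limma. The rest used Python 3.11.15 with pandas 2.3.3 and NumPy 2.4.6. A probe was above background on an array where over 0.5 of its spots were. RefSeq promoter windows matched 5 of 10 members. The number of arrays limits the precision.

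Alternatives were other background correction, folds without P, symmetric folds, matrix values, outlier spots kept, each array alone, any probe of a gene, and for limma each week left out, dim probes left out and the slide as a random block. The call rule and the limma test were run on simulated data without dye effects, and the other steps were not. Named were all members, each listed pathway gene called at least once (1 is not reported here), the 2 brightest and the most changed gene of each marker list at MXD 2W (other marker genes were named after their values were seen), and the 3 genes nearest to each called member. The members and lists were chosen with earlier results of these data known.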

Additional observations from a re-analysis of the deposited data

Results flagged for a closer look

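Pairs of comparisons of the same treatment or the same week were set side by side where a member was called in at least 1 of them and both arrays of one lay on the opposite side of VC from both arrays of the other. Pairs in which neither comparison was called are not listed. None of these differences was tested, since each treatment and week was 1 pool. Bambi differed between MXD 1W and N-CE 1W by 1.81 on the log2 scale, from 0.55 to -1.26. Within N-CE, Bambi at 1W minus 2W was -1.64 and at 1W minus 3W -1.34, where 2W is the week whose dye swap did not repeat across probes and 3W was 0.08. Within MXD, Bmp2 at 1W minus 2W was -1.24 (from -0.29 to 0.94), and at 2W minus 3W it was 0.95, with both 3W arrays within 0.01 of VC. Bmp7 at MXD 1W minus 2W was -0.78 (from -0.13 to 0.65). Weeks lie on different slides, so a difference between weeks and one between slides cannot be told apart.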

How the results depend on the processing

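Bmp2, Bmp7 and Bambi up at MXD 2W and Bambi down at N-CE 1W were called under each other setting listed for calls in the methods above. Folds without P, matrix values and any probe of a gene could not remove a call, and symmetric folds could not remove one up. With normexp and loess the log2 fold of Bmp7 at MXD 2W was 0.598, close to the threshold of 0.585. At MXD 2W the array with treated RNA in Cy5 alone called 5 members up, adding Bmp4 and Nog. Grem1 was the 1 member called down at MXD 2W by folds alone, by normexp and loess with folds alone, and by the array with treated RNA in Cy3 alone. Bambi was the 1 member called up at MXD 1W by the array with treated RNA in Cy3 alone. The share of all genes called under these other settings was not computed, so the member counts cannot be set against it. Of 60 member folds, normexp and loess turned the sign of 2, both within 0.02 of 0, and moved a fold by at most 0.286. The 3 limma results stayed at 0 calls with each week left out (lowest and highest 0) and under every other setting. With dim probes left out, 2472, 337 and 1720 probes had an unadjusted p under 0.05 for MXD, N-CE and their difference. No pairing by replicate was possible because every sample carries replicate number 1, so the numbers pair nothing. MXD was set against N-CE within week and dye orientation instead, and limma's MXD minus N-CE result used the within-week differences. Nog had the lowest signal of the members and an SD over the swap of up to 0.59. Bmp2, the next lowest and printed 10 times per array, had one of at most 0.13. Bmp4, also printed 10 times and with a mean signal of 1602, had one of up to 0.49. What sets this SD was not tested.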

Other observations

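In 6 of the 10 genes the difference between the 2 arrays of a swap had the same sign in all 6 comparisons. The array with treated RNA in Cy5 read higher for Nog, Grem1 and Bmpr1a and lower for Bmp7, Bambi and Id1. The dye effect, this difference divided by 2, had a median of 0.24 for Nog, 0.15 for Grem1 and 0.12 for Bmpr1a, and -0.07 for Bmp7, -0.09 for Bambi and -0.06 for Id1. Over 14621 genes above background on all arrays, 14.4% were positive and 15.6% negative in all 6 swaps. For Nog it reached 0.41 at MXD 2W, close to the mean log2 fold of 0.52 measured there.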
